A study of Homo sapiens with 9 samples.

Results

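Oxidative phosphorylation makes most of the ATP of a respiring cell. Complexes I to IV of the inner mitochondrial membrane pass electrons from NADH and succinate to oxygen, all but complex II pump protons, and complex V, the ATP synthase, uses the proton gradient to make ATP. A few of the subunits are encoded in mitochondrial DNA and transcribed there by a separate polymerase. All others are transcribed in the nucleus by RNA polymerase II, from promoters that are known for sites of the factors NRF1, GABP (an ETS family factor) and YY1.

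The genes described here are 90 of the 20033 protein-coding genes of GENCODE version 44 outside the mitochondrial chromosome. They were chosen by name alone: names that begin with NDUFA, NDUFB, NDUFC, NDUFS or NDUFV (without the NDUFAF assembly factors), SDHA to SDHD, and names that begin with UQCR, COX4 to COX8 or ATP5. By these names 40 genes count to complex I, 4 to complex II, 9 to complex III, 17 to complex IV and 20 to complex V. The names place a few genes loosely. NDUFA4 is known as a subunit of complex IV, ATP5IF1 is an inhibitor of the ATP synthase, and NDUFC2-KCTD14 and ATP5MF-PTCD1 are read-through genes that begin at the promoter of another member.

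Polymerase occupancy came from chromatin immunoprecipitation and sequencing (ChIP-seq) with a POLR2A antibody in HEK293T, a human embryonic kidney line. Cells expressed a control shRNA (genotype labelled wildtype) or carried a knockdown of U2AF1, a splicing factor that reads the 3′ splice site, or of DHX9, a helicase that unwinds RNA and R-loops, the hybrids of RNA and DNA that the series is about. Each of the 3 conditions had 2 ChIP samples and 1 input, but 1 deposited peak list, with 2757 peaks for the control, 1730 for the U2AF1 knockdown and 4443 for the DHX9 knockdown. They are called the control, U2AF1 and DHX9 lists. The extent and the time of the knockdowns are not given in the sources used here, nor is the depth of the libraries. The control list may rest on replicate 1 alone, as its peak names carry the number 1.

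A gene was counted as having a peak when the summit of a peak lay within 1000 bp of the start of any of its transcripts. The strength of a peak is its fold enrichment as the authors' caller gave it. Since fold enrichment is comparable only within a list, each peak is also given by its rank, with 1 for the highest, and by its rank as a percent of the list, so that a low percent is a strong peak. A rank in a longer list and one in a shorter list do not by themselves show a change. With 1 list per condition, no value has a replicate error and no difference between conditions was tested. Intervals are 95% Wilson intervals and cover counting error only. A gene without a peak may still be transcribed, below what the caller picked up at the depth of that list.

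The promoters of the 4 members with a peak in all lists are shown first, since the comparison of the conditions at the same gene rests on them. Each is a stretch of up to 150 bases upstream of the canonical start that no annotated UTR covers, on the strand of the gene, in the hg38 build. Capitals mark matches, on either strand, to 6 motifs that were searched: GCGC and TGCGC with any base between them for NRF1, CCGGAAG for ETS factors, AANATGGCG for YY1, GGGCGG for Sp1, CCAAT for NF-Y and TATAAA for the TATA box. The stretches lie at chr19:8321380-8321495 on the minus strand for NDUFA7, chr21:42893118-42893267 on the plus strand for NDUFV3, chr3:48609647-48609796 on the minus strand for UQCRC1 and chr1:46303617-46303697 on the plus strand for UQCRH.
NDUFA7: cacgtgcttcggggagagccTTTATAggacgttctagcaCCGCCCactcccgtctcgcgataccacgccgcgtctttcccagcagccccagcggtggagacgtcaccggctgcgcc
NDUFV3: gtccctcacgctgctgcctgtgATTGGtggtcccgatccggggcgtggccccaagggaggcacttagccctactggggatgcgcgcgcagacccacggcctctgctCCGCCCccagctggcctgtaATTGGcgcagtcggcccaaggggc
UQCRC1: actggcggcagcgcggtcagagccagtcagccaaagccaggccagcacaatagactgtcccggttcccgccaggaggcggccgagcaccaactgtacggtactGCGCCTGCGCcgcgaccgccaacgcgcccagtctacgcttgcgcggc
UQCRH: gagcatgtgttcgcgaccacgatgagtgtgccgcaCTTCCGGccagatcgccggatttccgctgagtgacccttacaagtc
The 4 stretches differed in what they held. The NDUFA7 stretch is the gap to the divergent ribosomal protein gene RPS28. Its TATAAA match, printed here as TTTATA from the other strand, reads in the direction of RPS28, and it also held a GGGCGG match. UQCRC1 had an NRF1 match that began 47 bases before the start, at -47. UQCRH had an ETS match at -46. NDUFV3 had CCAAT matches at -169 and -65 and a GGGCGG match at -85.

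A further set shows 1 member each of complexes II, III, IV and V. They were picked after their values were seen, because their peaks came from a single list or stood at very different ranks in the lists. The stretches lie at chr5:218154-218297 on the plus strand for SDHA, chr19:29213152-29213301 on the minus strand for UQCRFS1, chr15:74938084-74938233 on the minus strand for COX5A and chr10:7788027-7788176 on the plus strand for ATP5F1C.
SDHA: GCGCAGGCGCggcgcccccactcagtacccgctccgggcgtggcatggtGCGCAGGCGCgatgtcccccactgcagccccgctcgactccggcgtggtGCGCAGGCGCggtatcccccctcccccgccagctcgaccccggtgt
UQCRFS1: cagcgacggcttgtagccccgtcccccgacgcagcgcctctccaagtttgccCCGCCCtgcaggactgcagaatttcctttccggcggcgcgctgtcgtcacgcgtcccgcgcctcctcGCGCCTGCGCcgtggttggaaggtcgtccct
COX5A: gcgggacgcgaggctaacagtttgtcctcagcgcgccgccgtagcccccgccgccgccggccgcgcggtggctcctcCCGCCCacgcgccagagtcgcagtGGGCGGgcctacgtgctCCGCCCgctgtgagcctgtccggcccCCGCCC
ATP5F1C: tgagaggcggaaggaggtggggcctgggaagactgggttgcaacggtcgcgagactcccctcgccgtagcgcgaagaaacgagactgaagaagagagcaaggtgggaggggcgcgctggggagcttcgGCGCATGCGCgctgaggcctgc
SDHA, the flavoprotein of succinate dehydrogenase, held the same NRF1 match from the other strand, GCGCAGGCGC, 3 times, at -166, -117 and -68. UQCRFS1, the Rieske iron-sulfur protein, had an NRF1 match at -31 and ATP5F1C, the gamma subunit of the ATP synthase, had one at -22. COX5A had 4 matches to GGGCGG, at -83, -59, -42 and -16, and no NRF1, ETS or YY1 match in this stretch.

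Polymerase peaks were found at a minority of the genes. The control list had a peak at 18 of 90 (20.0%, 13.0 to 29.4), the U2AF1 list at 6 (6.67%, 3.09 to 13.8) and the DHX9 list at 27 (30%, 21.5 to 40.1). The same rule found a peak at 12.6%, 6.65% and 21.0% of all protein-coding genes in these lists. The members' share was thus close to that of all genes in the U2AF1 list and higher in the others, with no test made. The 18 members in the control list had 16 distinct peaks and the 27 in the DHX9 list had 26. No interval was taken without the genes that repeat a peak. All protein-coding genes include genes that may be silent in this line, and expression was not measured. In all, 33 members had a peak in at least 1 list (36.7%, against 24.9% of all protein-coding genes), at 31 loci because both read-through genes share the peak of another member. None of 9 tissue-restricted or duplicated members had a peak in any list (interval 0 to 29.9%). These were COX4I2, COX6A2, COX6B2, COX7A1, COX7B2, COX8C, NDUFA4L2, UQCRHL and ATP5MGL.

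The length of the lists bears on these shares. When every list was limited to its 1730 peaks of lowest p, the members' share came to 11.1% in the control list and 17.8% in the DHX9 list, against 8.06% and 8.45% of all protein-coding genes. That in the U2AF1 list, the shortest, stayed at 6.67%.

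**Figure D1:**
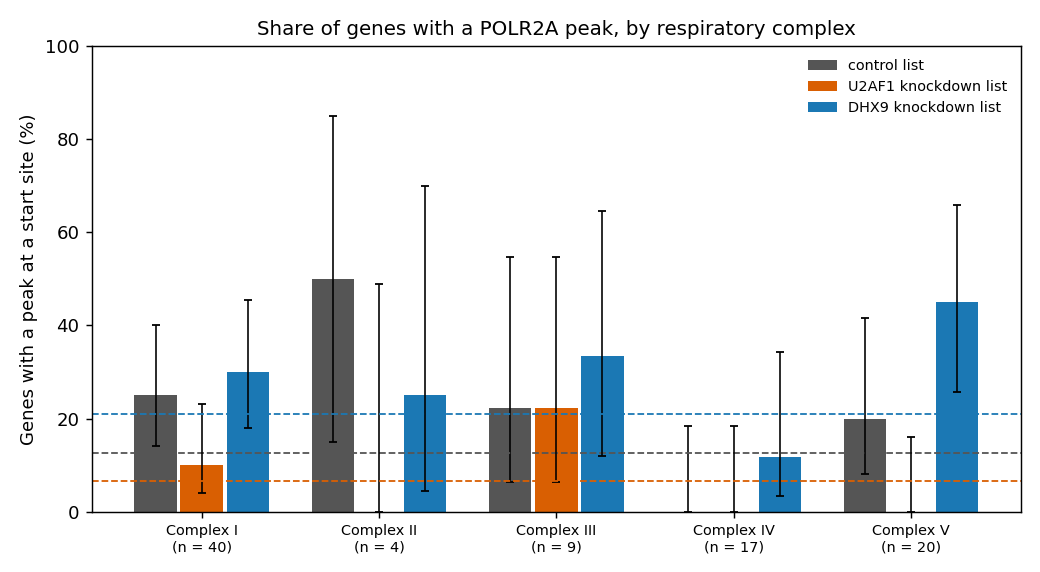
Share of genes with a POLR2A peak at a start site (vertical axis, percent) for the 5 respiratory complexes in the control, U2AF1 and DHX9 lists. Bars are shares, error bars are 95% Wilson intervals and dashed lines are the shares over all protein-coding genes; complex IV had no bar in the control and U2AF1 lists, and complex V had no bar in the U2AF1 list and reached 45.0% in the DHX9 list.

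The complexes did not have the same share of peaks. Complex I had peaks at 10 of 40 genes in the control list (25%, 14.2 to 40.2), at 4 in the U2AF1 list (10.0%) and at 12 in the DHX9 list (30%). For the 4 genes of complex II the counts were 2, 0 and 1, and for the 9 genes of complex III they were 2, 2 and 3. Complex IV had 0 of 17 in the control list (interval 0 to 18.4%), 0 in the U2AF1 list and 2 in the DHX9 list (11.8%, 3.29 to 34.3). Complex V had 4 of 20 in the control list (20.0%), 0 in the U2AF1 list and 9 in the DHX9 list (45.0%, 25.8 to 65.8). The intervals are wide, and those of every pair of complexes overlapped in each list.

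The peaks at these genes were moderate. The highest fold enrichment at a member was 5.30 in the control list, where the strongest peak of the list had 60.4. In the U2AF1 list it was 7.04, against 112.5, and in the DHX9 list 11.4, against 111.8. In the control list the 18 members lay at a median rank of 65.5% of the list, with 6 in its upper 50%, while all protein-coding genes with a peak had a median of 45.8%. In the U2AF1 list the 6 members had a median of 45.8%, against 41.6% for all genes with a peak. The median was 37.0% in the DHX9 list, against 45.5%. Members thus ranked lower than the median gene with a peak in the control list and higher in the DHX9 list. With equal list lengths the DHX9 knockdown median was 67.3%, against 49.2% for all genes with a peak, so this order did not hold there. With a -log10 q of at least 5 both DHX9 medians were 47.0%. Among members that share no promoter with a gene that is no member, the order against all genes could not be checked. The medians there were 27.5% for 5 members in the control list and 56.1% for 11 in the DHX9 list. The control median is that of the peak that NDUFC2 shares with its read-through gene, which is counted for each. No such median was taken over all genes.

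**Figure D2:**
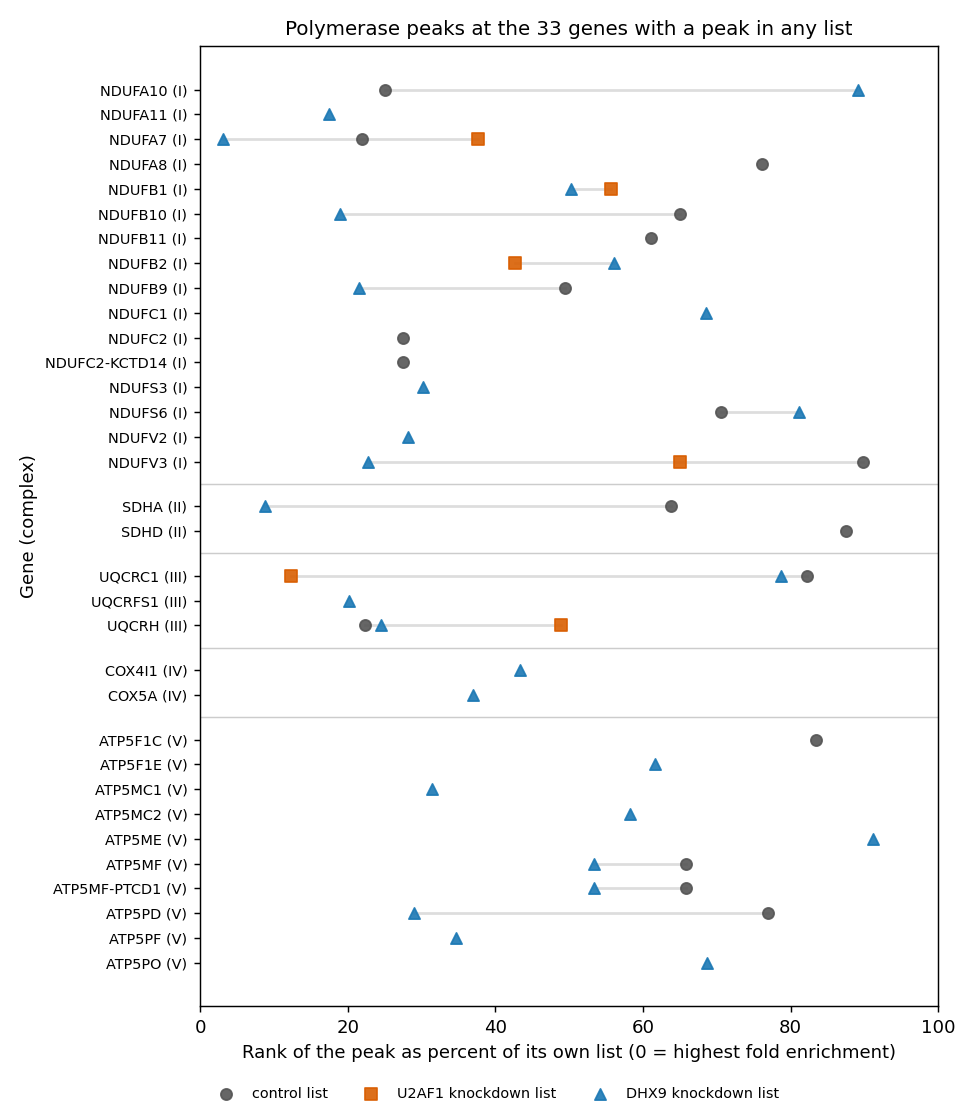
Rank of the strongest peak at each of the 33 genes as a percent of its own list (horizontal axis, 0 is the highest fold enrichment), by complex. Circles are the control list, squares the U2AF1 list and triangles the DHX9 list, and a gene without a symbol for a list had no peak there; UQCRC1 lay at 12.4% in the U2AF1 list and at 82.3% and 78.7% in the others.

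Complex I takes electrons from NADH. Its 7 nuclear core subunits carry the flavin and the iron-sulfur clusters or bind the quinone, and the others are accessory. Of the core subunits, 0 had a peak in the control list and 0 in the U2AF1 list. NDUFV2 and NDUFS3 had one in the DHX9 list, of rank 1249 and 1339 of 4443. The NDUFS3 summit of rank 1339 lay 334 bp from an upstream NDUFS3 start at 47565336, which is not the canonical one. It was 71 bp from a start of PTPMT1, a mitochondrial phosphatase. A second NDUFS3 peak of rank 1688 had its summit 17 bp from a start. For 0 of 7 the interval is 0 to 35.4%, which holds the shares of all protein-coding genes (12.6% and 6.65%) and of the accessory genes. Of the 33 accessory genes, 10 had a peak in the control list (30.3%, 17.4 to 47.3), 4 in the U2AF1 list (12.1%) and 10 in the DHX9 list (30.3%), where all protein-coding genes had 21.0%.

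NDUFA7, an accessory subunit on chromosome 19, had a peak in every list. Its fold enrichment was 5.30 (rank 605 of 2757) in the control list, 5.22 (rank 652 of 1730) in the U2AF1 list and 11.4 (rank 141 of 4443) in the DHX9 list. In rank it stood highest in the DHX9 list, at 3.17%, and this was the best rank of any member there. The peaks, at 8321247 to 8321695, 8321237 to 8321592 and 8321260 to 8321715, overlapped each other. The summits lay 38 bp from an RPS28 start in the control list and 28 bp in the DHX9 list, nearer than to the NDUFA7 start (-159 and -149 bp). In the U2AF1 list the summit was at -24 bp from the NDUFA7 start. The 50 bases around the summit have exact copies elsewhere on the chromosomes, 2 for the control summit and 1 for the DHX9 knockdown summit, and whether reads from these copies entered the peak was not tested. No other copy exists for the U2AF1 knockdown summit.

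NDUFV3, a small accessory subunit of the NADH-oxidizing part, has an upstream start at 42879644 on chromosome 21 and further starts downstream, which include the canonical one. The control peak (42892867 to 42893513, fold enrichment 2.69, rank 2477) and the U2AF1 knockdown peak (42892993 to 42893704, fold enrichment 4.24, rank 1126) lay at the downstream starts. In the DHX9 list the stronger peak lay at the upstream start (42879153 to 42879750, fold enrichment 6.60, rank 1013). Its summit was 21 bp from a start of WDR4, a subunit of a tRNA methyltransferase, on the other strand. That list had a second peak at the downstream starts, of fold enrichment 4.80 and rank 2878. The ranks of 89.8%, 65.1% and 22.8% therefore do not all describe the same start.

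NDUFB1 and NDUFB2, accessory subunits of the membrane arm, were the members with a U2AF1 knockdown peak and no control peak. Both also had a DHX9 knockdown peak. At NDUFB1 the fold enrichment was 4.56 (rank 964 of 1730) and 5.24 (rank 2235 of 4443). These summits lay 15 and 69 bp from a start of CPSF2, a cleavage and polyadenylation factor, and at -83 and -137 bp from the NDUFB1 start. NDUFB2 has no other coding start within 1000 bp of its summits, and had a fold enrichment of 5.00 (rank 738) under U2AF1 knockdown and 5.08 (rank 2494) under DHX9 knockdown. The intervals were 140696735 to 140697112 and 140696652 to 140696872 on chromosome 7, and the summits were 132 bp apart.

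In 4 further accessory genes a peak was found in the control and DHX9 lists. NDUFB10 stood at rank 1794 of 2757 (fold enrichment 3.69) in the control list and at rank 843 of 4443 (6.92) in the DHX9 list. NDUFB9 stood at rank 1362 (fold enrichment 4.15) and rank 957 (6.67), with the divergent gene TATDN1 next to it. NDUFS6, whose start faces the mitochondrial ribosomal gene MRPL36, had rank 1945 (fold enrichment 3.53) and rank 3604 (4.20). NDUFA10 stood at rank 690 (fold enrichment 5.10) and rank 3960 (3.75). The lists therefore ordered these genes differently: NDUFB10 and NDUFB9 stood higher under DHX9 knockdown as a percent of the list, NDUFS6 and NDUFA10 lower.

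Peaks in the control list alone were found at NDUFA8 (rank 2099), NDUFB11 (rank 1683) and NDUFC2 (rank 758, fold enrichment 4.97), whose peak also serves NDUFC2-KCTD14. Peaks in the DHX9 list alone, besides the core subunits, were found at NDUFA11 (rank 779, fold enrichment 7.09) and NDUFC1 (rank 3047). The NDUFC1 summit lay in an intron, 121 bp from an alternative start, and was not counted when only canonical starts were used. The NDUFV2 summit, in a coding exon, has 1 exact copy of its 50 bases elsewhere on the chromosomes.

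Complex II oxidizes succinate and hands the electrons to quinone. SDHA, its flavoprotein, had a control peak at 218031 to 218494 on chromosome 5 with a fold enrichment of 3.73 (rank 1759 of 2757). It had a DHX9 knockdown peak at 218120 to 218565 with a fold enrichment of 8.22 (rank 390 of 4443), and none in the U2AF1 list. The summits lay 2 and 26 bp downstream of a start, over a coding exon, next to the promoter stretch with the repeated NRF1 match. SDHA shares this promoter with CCDC127 and ENSG00000286001, and a start of the latter lay 75 and 99 bp from the summits. As a percent of its list SDHA stood at 63.8% and 8.78%. SDHD, a membrane anchor, had a peak in the control list alone (fold enrichment 2.85, rank 2412). SDHB, the iron-sulfur subunit, and SDHC, the other anchor, had no peak.

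Complex III passes electrons from quinol to cytochrome c. UQCRC1, a core protein of the complex, had a peak in each list over a coding exon on chromosome 3. The fold enrichment was 3.13 (rank 2268 of 2757) in the control list, 7.04 (rank 214 of 1730) in the U2AF1 list and 4.25 (rank 3495 of 4443) in the DHX9 list. It was the highest-ranking member of the U2AF1 list, at 12.4%, and stood near the lower end of the others, at 82.3% and 78.7%. The peaks, at 48609448 to 48609861, 48609428 to 48609764 and 48609475 to 48609841, had summits at 43, 65 and 44 bp downstream of a start. No other coding gene had a start within 1000 bp of the summits, so this peak is not shared.

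UQCRH, the hinge protein, had a fold enrichment of 5.28 (rank 617) in the control list, 4.77 (rank 845) in the U2AF1 list and 6.45 (rank 1089) in the DHX9 list. Its rank was similar in the control and DHX9 lists, at 22.4% and 24.5%, and lower in the U2AF1 list, at 48.8%. The summits were at -453, -488 and -473 bp from the UQCRH start and 18, 53 and 38 bp from a start of the divergent gene LRRC41. UQCRFS1 had a peak in the DHX9 list alone (29212936 to 29213231 on chromosome 19, fold enrichment 6.78, rank 895), with its summit 19 bp downstream of its single start. UQCRC2, UQCRB, UQCRQ, UQCR10, UQCR11 and UQCRHL had none.

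Complex IV, cytochrome c oxidase, reduces oxygen. COX4I1, the common form of subunit 4, and COX5A had peaks in the DHX9 list alone. COX4I1 had a fold enrichment of 5.56 (rank 1924 of 4443, 85799355 to 85799892 on chromosome 16). COX5A had 5.83 (rank 1645, 74937770 to 74938236 on chromosome 15). Both stood in the upper 50% of that list, at 43.3% and 37.0%. A start of EMC8, which shares the COX4I1 promoter, lay 157 bp from the COX4I1 summit. The other 15 genes, among them COX5B, COX6A1, COX6B1, COX6C, COX7A2, COX7B, COX7C and COX8A, had no peak in any list.

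The ATP synthase has a catalytic head, a central and a peripheral stalk and a ring of c subunits in the membrane. The head subunits alpha and beta, ATP5F1A and ATP5F1B, had no peak. Of the central stalk, ATP5F1C (gamma) had a peak in the control list alone (fold enrichment 3.05, rank 2301 of 2757). ATP5F1E (epsilon) had one in the DHX9 list alone (4.86, rank 2739 of 4443). A start of KIN, which shares the ATP5F1C promoter, lay 242 bp from the ATP5F1C summit. Of the genes for the c ring, ATP5MC1 (rank 1399) and ATP5MC2 (rank 2586) had DHX9 knockdown peaks and ATP5MC3 none.

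In the peripheral stalk, ATP5PD was found in the control list (fold enrichment 3.31, rank 2120) and in the DHX9 list (6.26, rank 1289). Its summits were 454 bp apart. The control summit lay 61 bp downstream of an ATP5PD start, and the DHX9 knockdown summit at -358 bp from a different ATP5PD start. The latter summit was 118 bp from a start of the divergent gene KCTD2. ATP5PF (rank 1538) and ATP5PO (rank 3053) were found in the DHX9 list alone. The ATP5PF peak is shared with GABPA, which encodes the DNA-binding subunit of GABP. ATP5MF, a membrane subunit, stood at rank 1815 in the control list (fold enrichment 3.66) and rank 2373 in the DHX9 list (5.17), and its read-through gene shares both peaks. ATP5ME (rank 4052) had the weakest peak of any member in the DHX9 list.

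Presence across the lists was as follows. A peak in all 3 lists was found at 4 members, or 4.44%, against 4.03% of all protein-coding genes. Of the 18 members with a control peak, 14 (77.8%) had none in the U2AF1 list, where the background was 64.6%. In the DHX9 list 6 of the 18 (33.3%) had none, against 24.5%. Both counts start from the same control list. Of the 27 members with a DHX9 knockdown peak, 15 (55.6%) had none in the control list, against 54.6%, and 21 (77.8%) had none in the U2AF1 list, against 74.2%. Of the 6 members with a U2AF1 knockdown peak, 2 (33.3%) had none in the control list, against 32.9%, and 0 had none in the DHX9 list, against 18.7%. These shares lay near the background, and with so few members a gene or 2 moves each by several points.

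Where a member had a peak in both the control and the DHX9 lists, 9 of 12 stood higher in the DHX9 list as a percent of the list. Over all protein-coding genes with a peak in both, this was 61.5% of 1907 genes. For the U2AF1 list it was 2 of 4 members, against 46.3% of 894 genes. Among the 9 are ATP5MF and its read-through gene, by the same peaks, and NDUFV3, whose compared summits lay 13512 bp apart. The peaks overlapped in 11 of the 12 members and in all 4, NDUFV3 being the exception in the first pair. The median distance between the summits was 22 bp for the control and DHX9 lists, and 43 bp over all such genes. It was 85 bp for the control and U2AF1 lists, against 38 bp, and 89.5 bp for the U2AF1 and DHX9 lists, against 47 bp.

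**Figure D3:**
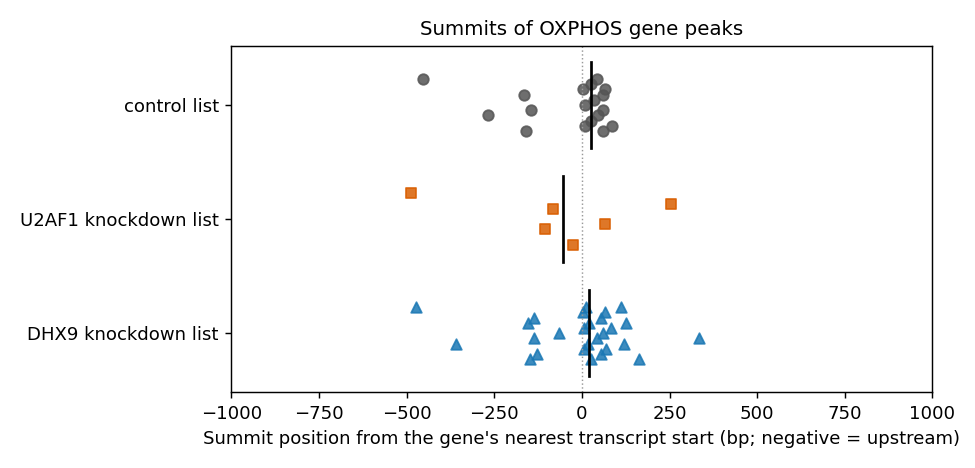
Position of the summit relative to the nearest transcript start of the gene (horizontal axis, bp, negative is upstream), with 1 symbol for each member with a peak and rows for the control, U2AF1 and DHX9 lists. Black bars are medians, at 25.5, -53.5 and 19.0 bp; vertical scatter within a row has no meaning, and most symbols lie close to 0.

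The summits lay close to the starts. Within 200 bp of a start were 16 of 18 in the control list, 4 of 6 in the U2AF1 list and 24 of 27 in the DHX9 list (88.9%, 66.7% and 88.9%, against 84.0%, 81.9% and 83.6% of all genes with a peak). Summits lay downstream of the start in 13 of 18 members in the control list and in 19 of 27 in the DHX9 list (72.2% and 70.4%), against 59.9% and 59.0% of all genes with a peak. In the U2AF1 list it was 2 of 6 (33.3%), against 65.2%. The farthest summit that was counted was that of UQCRH at -488 bp in the U2AF1 list. The nearest that was not counted was a second NDUFB10 peak of rank 1507 in the control list, 1986 bp from a start and inside the gene. The U2AF1 list had a peak within NDUFB6 (rank 1408), 6243 bp from a start.

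Many members share their promoter. Of the 90 genes, 40 (44.4%) had a start within 1000 bp of the start of a protein-coding gene that is no member, and 35 (38.9%, 29.5 to 49.2) had such a start on the opposite strand. For all protein-coding genes, counting any other protein-coding gene, these shares were 23.3% and 17.7%. A gene counts as sharing by any of its starts, whether or not the peak lies at that start. In the control list a peak was found at 13 of the 40 members that share a promoter (32.5%, 20.1 to 48.0) and at 5 of the other 50 (10.0%, 4.35 to 21.4). Over all protein-coding genes the shares were 19.9% and 10.4%. The DHX9 list had 16 of 40 (40.0%, 26.3 to 55.4) and 11 of 50 (22%, 12.8 to 35.2), against 31.4% and 17.8%, and the U2AF1 list had 4 of 40 and 2 of 50, or 10.0% and 4.00% (1.10 to 13.5), against 10.2% and 5.57%. For members without a shared promoter the intervals held the share of all such genes in each list. By the summit itself, 12, 3 and 15 members in the control, U2AF1 and DHX9 lists had a start of a gene that is no member within 1000 bp. The others counted as sharing were NDUFV3 in the control and U2AF1 lists and NDUFC1 in the DHX9 list, whose peaks lay at another start.

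Which gene of a pair the polymerase served cannot be read from a peak without strand. The coding start nearest to the summit belonged to a gene that is no member in 3 of 18 cases in the control list (NDUFA7, SDHD and UQCRH). It did so in 3 of 6 in the U2AF1 list (NDUFA7, NDUFB1 and UQCRH) and in 9 of 27 in the DHX9 list (NDUFA7, NDUFA11, NDUFB1, NDUFB9, NDUFS3, NDUFV3, UQCRH, ATP5ME and ATP5PD). Some of these starts belong to coding genes without a name. In the U2AF1 list such a start lay 20 bp from the NDUFA7 summit, which was at -24 bp from the NDUFA7 start. The SDHD summit lay 22 bp from such a start and 26 bp from its own, and the NDUFA11 summit 3 and 54 bp. Of the 4 members with a peak in all lists, UQCRC1 is the one with no start near that of another coding gene. NDUFV3 shares its upstream start only. Its control and U2AF1 knockdown summits lay 13433 and 14007 bp from a start of WDR4, so these 2 peaks are not at a shared promoter.

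**Figure D4:**
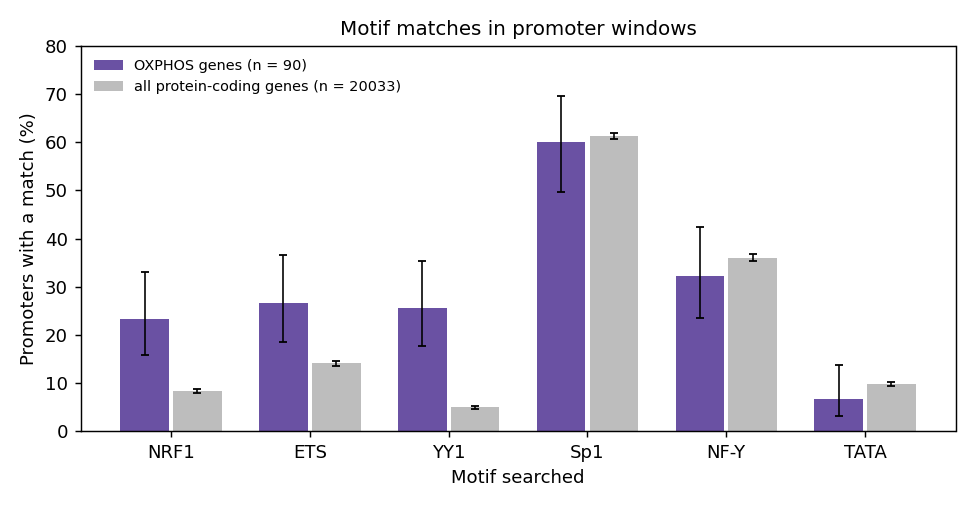
Share of promoters (vertical axis, percent; 250 bases before to 50 bases after the canonical start) with at least 1 match to each motif, for the 90 genes and for all 20033 protein-coding genes. Error bars are 95% Wilson intervals; the NRF1, ETS and YY1 motifs were found in 23.3%, 26.7% and 25.6% of the 90 promoters, and Sp1 and NF-Y in shares near those of all genes.

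In promoter windows of 250 bases before to 50 bases after the canonical start, the NRF1 letters were found at 21 of 90 members (23.3%, 15.8 to 33.1), against 8.40% of all protein-coding promoters. The ETS letters were found at 24 (26.7%, 18.6 to 36.6), against 14.1%, and the YY1 letters at 23 (25.6%, 17.7 to 35.4), against 4.98%. At least 1 of the 3 was found at 55 members (61.1%, 50.8 to 70.5), against 24.2%. GGGCGG was found at 60.0% of members and 61.3% of all promoters, CCAAT at 32.2% and 36.1%, and TATAAA at 6.67% and 9.71%. The motifs may overlap each other, and a match describes letters only.

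The share with NRF1, ETS or YY1 letters was similar in members with and without a peak. Of the 33 members with a peak in any list, 60.6% had an NRF1, ETS or YY1 match, and of the 57 without a peak 61.4%. Over all protein-coding genes the shares were 40.7% with a peak and 18.7% without. The Sp1 letters were found at 72.7% of members with a peak (55.8 to 84.9) and 52.6% without (39.9 to 65.0), and over all genes at 80.1% and 55.1%. The NF-Y letters were found at 21.2% (10.7 to 37.8) and 38.6% (27.1 to 51.6) of members, and at 35.3% and 36.3% of all genes. By complex, at least 1 of the 3 was found at 23 of 40 genes of complex I, 3 of 4 of complex II, 7 of 9 of complex III, 7 of 17 of complex IV and 15 of 20 of complex V. Complex IV thus had the lowest share of motif matches among the 5, and of peaks in the control and DHX9 lists, and 6 of its genes are the tissue-restricted forms named above.

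The median GC content of the promoter windows was 60.7% for members and 63.7% for all protein-coding genes. It was 63.3% in members with a peak and 58.0% in those without, and over all genes 68.7% and 61.3%. The skew of G over C in the 500 bases after the start, (G - C)/(G + C) on the coding strand, is a feature linked to R-loops. Its median was 0.0645 for members and 0.0526 for all genes, and 0.0631 and 0.0667 for members with and without a peak. SDHA had a skew of 0.168 and UQCRC1 of 0.170, while it was 0 at UQCRH and -0.211 at NDUFA7.

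**Figure D5:**
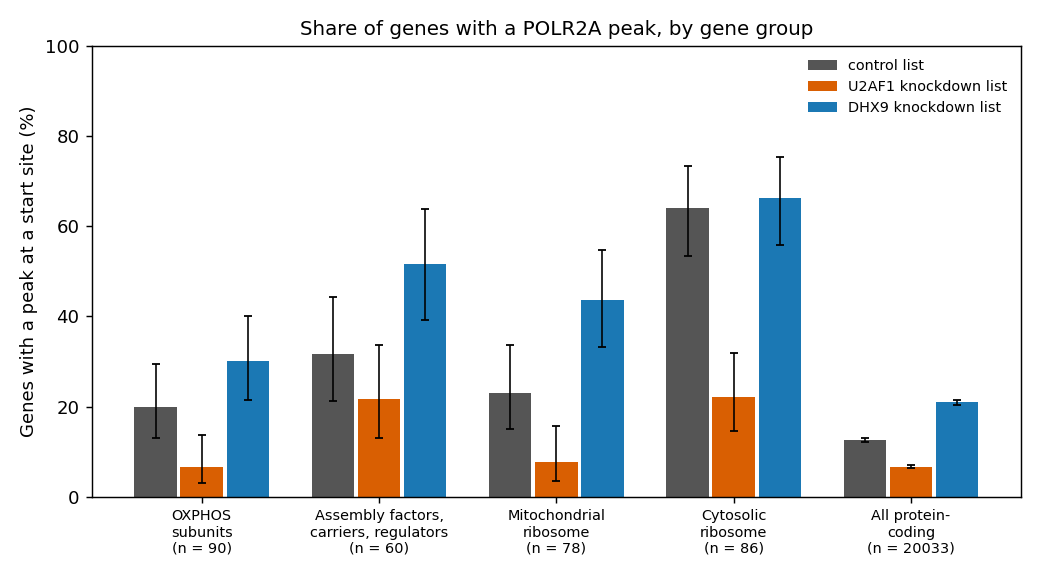
Share of genes with a POLR2A peak at a start site (vertical axis, percent) for 90 subunit genes, 60 assembly factors, carriers and regulators, 78 mitochondrial and 86 cytosolic ribosomal protein genes and all protein-coding genes. Bars are the control, U2AF1 and DHX9 lists with 95% Wilson intervals; in the control list the subunit genes lay at 20.0% and the cytosolic ribosomal genes at 64.0%.

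The genes that build and regulate the pathway were counted from a list of 60: assembly factors of the complexes, cytochrome c and c1, and transcription regulators. They had a peak at 19 (31.7%, 21.3 to 44.2) in the control list, at 13 (21.7%, 13.1 to 33.6) in the U2AF1 list and at 31 (51.7%, 39.3 to 63.8) in the DHX9 list. Each share was above that of the subunit genes, with no test made. Among them TTC19, a complex III assembly factor, stood at rank 156, 213 and 220 in the control, U2AF1 and DHX9 lists, within the top 12.3% of each list. SURF1, needed to assemble complex IV, stood at rank 763, 194 and 788. NDUFAF3, an assembly factor of complex I, stood at rank 333, 223 and 575.

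Both mobile and fixed carriers of electrons at complex III had peaks. CYCS, cytochrome c, stood at rank 223 of 2757, 887 of 1730 and 2833 of 4443, or at 8.09%, 51.3% and 63.8% of the lists. CYC1, cytochrome c1, stood at rank 1012 and 655 in the control and DHX9 lists and was not in the U2AF1 list. Of the regulators, NRF1 had peaks of rank 1563, 453 and 1099 and YY1 of rank 1596, 819 and 373. TFAM, which serves mitochondrial DNA, and GABPA had a peak in the DHX9 list alone, of rank 490 and 1538. PPARGC1A, GABPB1, ESRRA and POLRMT had none.

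The genes of the other mitochondrial assembly, the mitochondrial ribosome, had a peak at 18 of 78 (23.1%, 15.1 to 33.6) in the control list, 6 (7.69%) in the U2AF1 list and 34 (43.6%, 33.1 to 54.6) in the DHX9 list. Their control median rank was 63.4% of the list, close to the 65.5% of the subunit genes, but under DHX9 knockdown it was 66.7%, against 37.0%. The latter value depended on the setting. It was 67.3% in lists of equal length, 56.1% for subunit genes without a shared promoter and 47.0% under the stricter q cutoff. Other settings left it between 36.4% and 40.6%. The ribosomal genes were not run in these settings, so whether the DHX9 difference holds there was not tested. The cytosolic ribosomal protein genes had peaks at 55 of 86 (64.0%, 53.4 to 73.3), 19 (22.1%) and 57 (66.3%). In the control list the subunit genes of oxidative phosphorylation were thus near the mitochondrial ribosomal genes in share and in rank, and well below the cytosolic ribosomal genes.

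Peaks on the mitochondrial chromosome, where the other subunits are encoded, numbered 0 in each list. The 50 bases around the canonical start had an exact copy elsewhere on the chromosomes for 1 of 90 members, ATP5MGL. For 3 more, COX8C, NDUFA3 and NDUFA6, copies were found on alternate or unplaced sequences of the build. None of these 4 had a peak, and whether reads were lost there was not tested.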

How the data were processed

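POLR2A ChIP-seq peaks were analysed from 3 lists, 1 per condition. Per the submitters' processing notes, Bowtie2 2.4.5, MACS2 2.2.7.1, deepTools 3.5.1 and the build hg38 were used. Read filters, the use of the input and the pooling of replicates are not given in the sources used here. The authors deposited for each peak a fold enrichment (a ratio), -log10 of its p-value and q-value, and a score that follows from the q-value. All peaks lay within the sequences of the hg38 reference, and 0 ended beyond them.

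Depth is unknown from the lists, and a deeper library can yield more weak peaks, so shares were set beside those of all protein-coding genes in the same list. Peaks were assigned to GENCODE version 44 transcript starts within 1000 bp by a script in Python 3.11.15 with pandas 2.3.3, checked on simulated peaks. For a gene with several peaks the strongest counted. Full values are given for the 5 best-ranked members of each list, for members in all 3 lists and for those with a U2AF1 knockdown peak and no control peak. Sequences were planned for up to 6 members in all 3 lists, of which there were 4. The genes, lists and rules were chosen with earlier results of these data known. Sequences and motif matches were read from hg38 at the canonical start, and columns of other samples numbered 0. The 3 inputs entered no value of their own. Other peak thresholds, windows, starts, list lengths and rankings were tried, and the closing section gives their effect.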

Additional observations from a re-analysis of the deposited data

How the results depend on the processing

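Of 83 alternative values, 72 stayed within their interval or within 1.5 times a count. No paired analysis was possible because a condition is represented by 1 list, and leaving out a replicate was not possible for the same reason. Windows of 500 and 2000 bp, any base of the peak, other sets of starts and ranking by -log10 p moved no value past these limits. With a -log10 q of at least 5, members in all 3 lists numbered 2, and 3 of 12 members with a control peak had no DHX9 knockdown peak. The DHX9 median rank was 47.0%, as for all genes with a peak. The U2AF1 knockdown share was then 3.33%, against 3.92% of all protein-coding genes. With 1730 peaks per list, the shares were 11.1% in the control list and 17.8% in the DHX9 list, and the DHX9 knockdown median rank was 67.3%. Of 10 members with a control peak, 7 then had none in the U2AF1 list, where the main count was 14 of 18. By construction this setting leaves fewer peaks. Without members that share a promoter, 50 genes are left, with fewer peaks by construction: the control share was 10.0%, the median rank was 27.5% in the control list, and 1 member had a peak in all lists. Of 5 members with a control peak, 4 then had none in the U2AF1 list and 2 had none in the DHX9 list. Of 11 with a DHX9 knockdown peak, 8 had none in the control list. No background share was taken for the counts across lists in these settings. The unknown depth limits what the absence of a peak shows.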
